A study of Arabidopsis thaliana with 6 samples.

Results

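The genes described here are the 3 Arabidopsis gibberellin receptor genes, GID1A, GID1B and GID1C, and SLY1, the F-box gene through which gibberellin removes DELLA proteins. They were taken as the probe sets that the array's annotation gives to one of these genes alone. Each gene had 1 such probe set, so 4 of the 13350 genes with a single-gene probe set are described, and no choice between probe sets was needed. Their loci are AT3G05120 for GID1A, AT3G63010 for GID1B, AT5G27320 for GID1C and AT4G24210 for SLY1. A probe set listed for ATSLY1 belongs to another gene and was not used.

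RNA came from whole, untreated Arabidopsis thaliana seedlings of the Col-0 ecotype, 7 days old, and was hybridised to Affymetrix ATH1 arrays. The groups were SUB1A seedlings, which carry 35S:FLAG-SUB1A, SUB1C seedlings, which carry 35S:FLAG-SUB1C, and wild-type (WT) Col-0 seedlings, with 2 biological replicates and 1 array for each. SUB1A and SUB1C are ethylene response factor genes of rice, stably transformed here behind the constitutive 35S promoter with a FLAG tag, and all groups shared the ecotype, age and growth conditions. The labels name neither the number of independent transformants nor an empty-vector line, so an effect of a transgene cannot be told apart from other differences between the lines, and the transcripts of the transgenes were not analysed here. The 6 arrays had similar medians, between 7.60 and 7.63 on the log2 scale, and the arrays of a group correlated at 0.998 to 0.999 across probe sets.

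Gibberellins promote germination, elongation and flowering. The hormone binds a soluble GID1 receptor, the complex binds a DELLA protein, a nuclear repressor of growth, and the SCF ubiquitin ligase that carries SLY1 then marks the DELLA for destruction. In Arabidopsis the 3 receptors overlap in function, and transcripts of GID1A and GID1B are known to be raised by DELLA proteins and lowered by gibberellin. In rice, SUB1A is known for holding back shoot elongation under water, with more of the DELLA-type repressors of gibberellin response.

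In SUB1A seedlings, SLY1, GID1B and GID1A rose against WT, by 1.42-fold, 1.30-fold and 1.22-fold, while GID1C did not pass the test. The same 3 genes were higher in SUB1A than in SUB1C seedlings, by 1.27-fold to 1.30-fold for SLY1 and GID1A and 1.20-fold for GID1B. None of the 4 genes passed the test in SUB1C seedlings against WT. Levels are log2 values, SD is the spread of 2 arrays, and a change is the difference of group means with its standard error (SE) from a limma fit to all 6 arrays. A gene is said to have risen, fallen or differed where p, Benjamini-Hochberg adjusted over all 22746 probe sets, was under 0.05. How the 2 biological replicates of a group were separated is not stated, so p reflects the spread between these samples only. That spread is pooled over the 3 groups and moderated toward that of all probe sets. In RNA from whole seedlings, fewer cells of a type and less RNA per cell cannot be told apart.

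**Figure D1:**
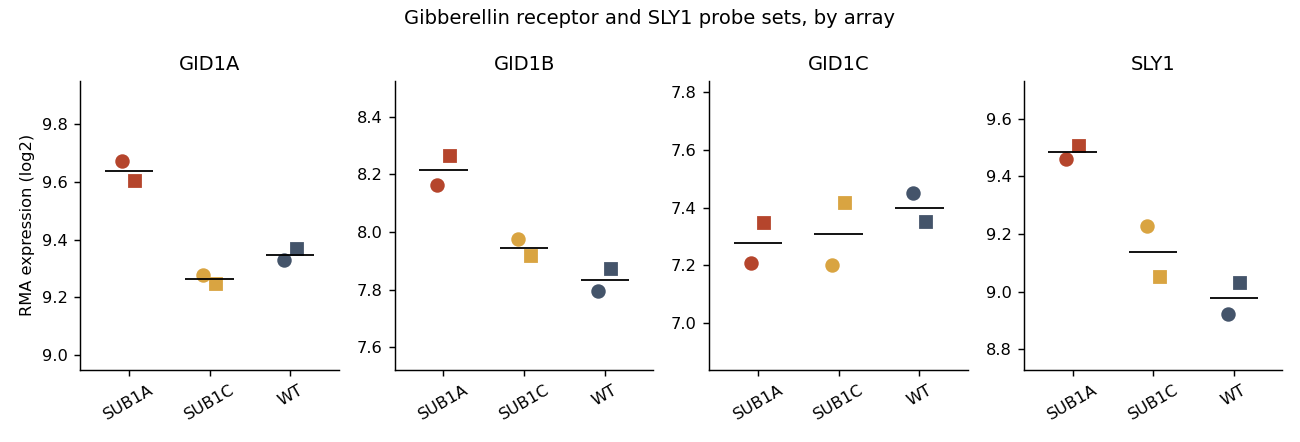
RMA expression (log2) of the probe sets of GID1A, GID1B, GID1C and SLY1 on each array of the SUB1A, SUB1C and WT groups (circle, replicate 1; square, replicate 2; line, mean of 2 arrays). Every panel spans the same range of log2 units, and the SUB1A arrays of GID1A, GID1B and SLY1 lie above all other arrays.

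GID1A, the first of the receptor genes, read 9.67 and 9.60 on the SUB1A arrays, 9.28 and 9.24 on the SUB1C arrays, and 9.33 and 9.37 on the WT arrays. The SUB1A arrays were the highest and the SUB1C arrays the lowest, with no overlap between any of the groups. Means were 9.64 ± 0.05 in SUB1A, 9.26 ± 0.02 in SUB1C and 9.35 ± 0.03 in WT (SD, n = 2 each). GID1A rose by 0.29 ± 0.06 (SE) in SUB1A against WT, with a limma adjusted p of 0.0124 and a 95% interval of 0.15 to 0.43. Its call ended without SUB1A replicate 1, at an adjusted p of 0.0801, and without WT replicate 1, at an adjusted p of 0.0581. Its change in SUB1C against WT was -0.09 ± 0.06, with an adjusted p of 0.492. The order of the groups was therefore SUB1A, WT, SUB1C, and the lower pair did not pass the test.

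GID1B is the receptor gene whose protein is known for the highest affinity for gibberellin among the 3. It read 8.16 and 8.26 on the SUB1A arrays, 7.98 and 7.92 on the SUB1C arrays, and 7.79 and 7.87 on the WT arrays. Here SUB1A was again highest, WT was lowest, and SUB1C lay between them without overlap. Means were 8.21 ± 0.07 in SUB1A, 7.95 ± 0.04 in SUB1C and 7.83 ± 0.05 in WT (SD, n = 2 each). GID1B rose by 0.38 ± 0.07 in SUB1A against WT, with a limma adjusted p of 0.00549 and a 95% interval of 0.23 to 0.54. This call held when any one of the 6 arrays was left out, with adjusted p up to 0.0381. In SUB1C against WT the difference was 0.11 ± 0.07, with an adjusted p of 0.395, so the middle and lowest groups did not pass the test.

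GID1C, the remaining receptor gene, read 7.21 and 7.35 on the SUB1A arrays, 7.20 and 7.42 on the SUB1C arrays, and 7.45 and 7.35 on the WT arrays. It had the widest spread between replicates of the 4 genes in SUB1A and SUB1C, and the SUB1C arrays overlapped those of both other groups. The SUB1A and WT arrays met at almost the same value. Means were 7.28 ± 0.10 in SUB1A, 7.31 ± 0.15 in SUB1C and 7.40 ± 0.07 in WT (SD, n = 2 each). The change in SUB1A against WT was -0.12 ± 0.09, with a limma adjusted p of 0.394 and a 95% interval of -0.33 to 0.08. Single arrays moved this value, to -0.05 without SUB1A replicate 1, -0.07 without WT replicate 1 and -0.19 without SUB1A replicate 2, without passing in any. The SUB1C change against WT was -0.09 ± 0.09, with an adjusted p of 0.634. No neighbours in the order of the 3 groups passed the test for GID1C.

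SLY1, which encodes the F-box subunit that recognises DELLA proteins, read 9.46 and 9.51 on the SUB1A arrays, 9.23 and 9.05 on the SUB1C arrays, and 8.92 and 9.03 on the WT arrays. The groups stood in the same order as for GID1B, with SUB1A clear of the others and SUB1C replicate 2 just above the higher WT array. Means were 9.48 ± 0.03 in SUB1A, 9.14 ± 0.12 in SUB1C and 8.98 ± 0.08 in WT (SD, n = 2 each). SLY1 rose by 0.51 ± 0.08 in SUB1A against WT, with a limma adjusted p of 0.00275 and a 95% interval of 0.33 to 0.68. This was the largest change among the 4 genes, and its call held when any one of the 6 arrays was left out, with adjusted p up to 0.0235. For SUB1C against WT the SLY1 difference was 0.16 ± 0.08, with an adjusted p of 0.285 and a 95% interval of -0.02 to 0.34. Without SUB1C replicate 1 that difference was 0.07, and without SUB1C replicate 2 it was 0.25.

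**Figure D2:**
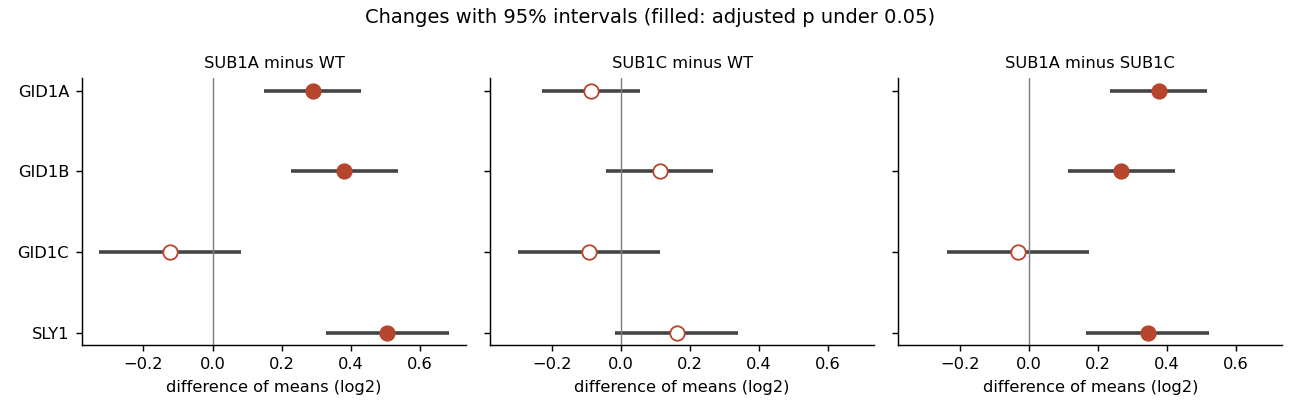
Difference of group means (log2) for the 4 genes in each comparison, with the 95% interval of the limma fit (filled points, adjusted p under 0.05; open points, above it). GID1A, GID1B and SLY1 are filled in the 2 comparisons that hold SUB1A, and every interval of SUB1C minus WT includes 0.

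Against WT, 3 of the 4 genes rose in SUB1A seedlings and 0 fell. The 4 genes were listed with earlier results of these data known, so setting them beside all probe sets is no test. Of all 22746 probe sets, 9.47% rose, 10.8% fell and 20.2% passed in either direction. The median change of the 4 genes was 0.34, against 0.01 over all probe sets. These changes were moderate for that comparison. A change at least as large in either direction was seen in 16.4% of all probe sets for GID1A, 10.5% for GID1B and 6.32% for SLY1, and the median size among called probe sets was 0.38. Arrays did not overlap between SUB1A and WT for 4 of the 4 genes, but neither did they for 59.2% of all probe sets.

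In SUB1C seedlings against WT, 0 of the 4 genes passed in limma and 0 had an unadjusted p under 0.05. Of all 22746 probe sets, 4681 had an unadjusted p under 0.05, so with 4 genes these counts say little. In that comparison 4.71% of all probe sets were called, 2.84% higher and 1.87% lower. The changes of the 4 genes ran from -0.09 to 0.16, with a median of 0.01 beside 0.00 over all probe sets. Arrays did not overlap for 3 of the 4 genes, against 51.2% of all probe sets. The largest rise that the 95% intervals allow was 0.06 for GID1A, 0.27 for GID1B, 0.11 for GID1C and 0.34 for SLY1.

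The comparison of SUB1A with SUB1C tested whether the lines differed from each other. It shares the SUB1A arrays with the first comparison, so it is no separate measurement of them. GID1A was higher in SUB1A by 0.38 ± 0.06 with a limma adjusted p of 0.00624, SLY1 by 0.34 ± 0.08 with 0.0239, and GID1B by 0.27 ± 0.07 with 0.0372. For GID1C the difference was -0.03 ± 0.09, with an adjusted p of 0.868 and a 95% interval of -0.24 to 0.17. That makes 3 of 4 genes higher and 0 lower, beside 5.57% of all probe sets higher, 6.48% lower and 12.1% in either direction. Here too the genes were listed with earlier results known, so the contrast is no test. Arrays did not overlap for 3 of the 4 genes and for 57.9% of all probe sets.

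Calls between the lines were lost in smaller fits, where leaving out 1 array left a group with 1 array and less precision. The GID1A call ended without SUB1C replicate 2, at an adjusted p of 0.0577. The SLY1 call ended without either SUB1A array or without SUB1C replicate 2, with adjusted p of 0.0841, 0.107 and 0.166. For GID1B, leaving out any of the 4 arrays ended the call, at an adjusted p as high as 0.204. Calls over all probe sets also became fewer without any of these arrays. Without SUB1A replicate 1, the changes of GID1B and SLY1 were larger than with all arrays, at 0.32 and 0.37, though their calls ended. Over single omitted arrays the changes kept their direction, at 0.34 to 0.41 for GID1A, 0.22 to 0.32 for GID1B and 0.26 to 0.43 for SLY1.

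**Figure D3:**
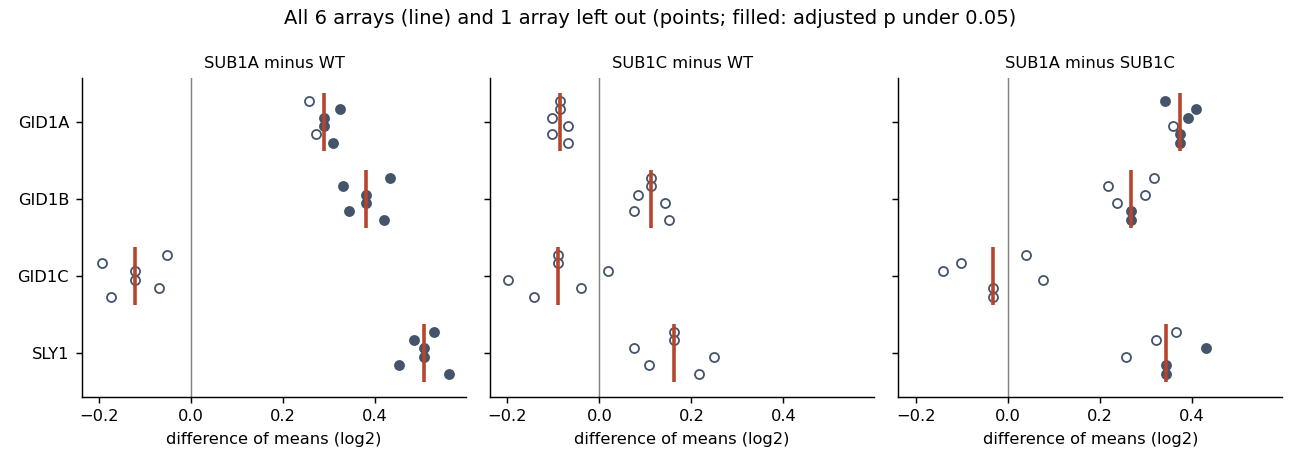
Difference of group means (log2) for each gene and comparison with all 6 arrays (vertical line) and with 1 array left out (points; filled, adjusted p under 0.05), where the points run from top to bottom as SUB1A replicates 1 and 2, SUB1C replicates 1 and 2, and WT replicates 1 and 2. GID1B and SLY1 stay filled throughout SUB1A minus WT, and GID1C crosses 0 in the other 2 comparisons.

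The changes of the 4 genes were also set against each other within each array, as a description with no test. In this reading the log2 difference between GID1A and GID1C was larger in SUB1A than in WT by 0.41, and that between GID1B and GID1C by 0.50. For GID1A minus GID1B the difference of changes was -0.09, and for GID1C minus SLY1 it was -0.63, the widest among the 6 pairs of genes.

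Other genes of the pathway came from lists of 91 further gene names, synonyms included, of which 11 had a probe set with that single gene. The lists of gibberellin synthesis, gibberellin inactivation and DELLA genes had 0 measured members and were not analysed here. In SUB1A against WT, 1 of the 11 rose and 3 fell, with a median change of -0.14, beside 9.47% and 10.8% of all probe sets. In SUB1C against WT, 0 rose and 2 fell, with a median of -0.11, beside 2.84% and 1.87% of all probe sets. In SUB1A against SUB1C, 0 were higher and 2 lower, beside 5.57% and 6.48%. With 11 genes these counts say little about the pathway.

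Of 12 other listed genes for DELLA turnover and modification, 3 were measured, SNE, SPY and SEC, and 0 of these passed in any comparison. Of all probe sets, 20.2% passed in SUB1A against WT, 4.71% in SUB1C against WT and 12.1% between the lines. With 3 genes the count therefore says little. SNE, also called SLY2, encodes the F-box protein closest to SLY1, and it read 5.92 and 5.96 on the SUB1A arrays, against 5.98 and 5.94 on the WT arrays. Its change was -0.02 ± 0.06, with a limma adjusted p of 0.881. SPY, for an O-fucosyltransferase that modifies DELLA proteins, was at 0.01 ± 0.06. SEC, for the related O-GlcNAc transferase, was at 0.00 ± 0.06. In SUB1C against WT the changes of SNE, SPY and SEC lay between -0.06 and 0.03. SPT and ALC, bHLH factors known as DELLA partners, were at -0.19 ± 0.07 and -0.17 ± 0.09 in SUB1A and at -0.28 ± 0.07 and -0.22 ± 0.09 in SUB1C, short of the threshold with adjusted p between 0.0587 and 0.227.

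Among the transporters that can carry gibberellin, SWEET13 had the largest change. It read 6.27 and 6.43 on the SUB1A arrays, 7.27 and 7.32 on the SUB1C arrays, and 7.97 and 7.47 on the WT arrays. SWEET13, better known as a sucrose exporter, fell by 1.37 ± 0.14 in SUB1A against WT, to a level 2.58-fold lower, with a limma adjusted p of 0.000404. Its paralogue SWEET14 was at 0.34 ± 0.12 with an adjusted p of 0.0853. Its value rested on single arrays, at 0.51 with an adjusted p of 0.0283 without SUB1A replicate 1 and at 0.17 with 0.391 without SUB1A replicate 2. NPF4.1 rose by 0.24 ± 0.06, with an adjusted p of 0.0314 that was above 0.05 without any one of the 6 arrays, at up to 0.154, with a trended prior, at 0.0662, and after renewed quantile normalization, at 0.0513. NPF3.1 fell in SUB1C seedlings by 0.35 ± 0.06 with an adjusted p of 0.0220, a call that ended without any 1 of the SUB1C or WT arrays, at up to 0.135.

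Of the genes known to respond to gibberellin or DELLA proteins, 2 of 22 listed were measured, and both fell in SUB1A seedlings. Of all probe sets, 10.8% fell in SUB1A against WT, and 2 genes say little about the listed genes that were not measured. EXPA8, an expansin gene of cell wall loosening, read 9.41 and 9.49 on the SUB1A arrays, 10.86 and 10.76 on the SUB1C arrays, and 11.38 and 11.18 on the WT arrays. It fell by 1.83 ± 0.08 in SUB1A and by 0.47 ± 0.08 in SUB1C, and the second call ended without either SUB1C array or without WT replicate 1, with adjusted p up to 0.114. XERICO is a RING finger gene that DELLA proteins are known to raise, as they do GID1A and GID1B. The part of DELLA proteins in the changes of these genes was not tested. XERICO read 8.93 and 8.88 on the SUB1A arrays, against 9.36 and 9.15 on the WT arrays. XERICO fell by 0.35 ± 0.08, with a limma adjusted p of 0.0162. That call ended without either SUB1A array or without WT replicate 1, at up to 0.0814.

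**Figure D4:**
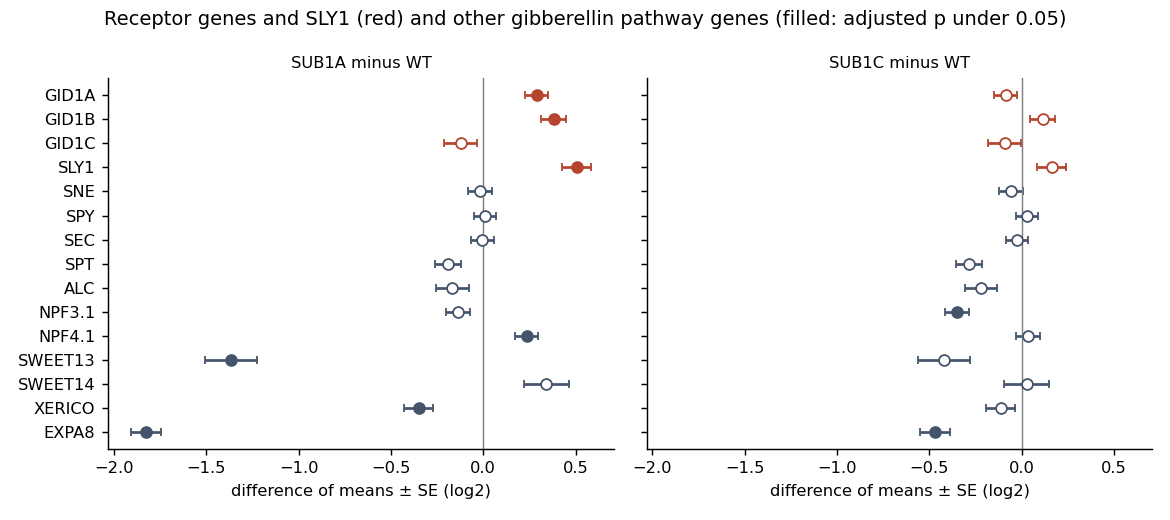
Difference of group means ± SE (log2) against WT for the 4 genes (red) and the 11 other measured genes of the gibberellin pathway (blue), in SUB1A at left and SUB1C at right (filled, adjusted p under 0.05). SNE, SPY and SEC sit near 0, whereas in SUB1A seedlings SWEET13 (-1.37) and EXPA8 (-1.83) fall further than any of the 4 genes rises.

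Relatives of the 4 genes were added after seeing which genes the array annotation names, at a point when their values could also be seen. Of 11 such genes, 1 rose in SUB1A against WT, a share near the 9.47% of all probe sets that rose and so no result about the relatives. In SUB1C against WT 0 rose, beside 2.84% of all probe sets. The one that rose was CXE20, of the plant carboxylesterase family to which the GID1 receptors are related. It read 8.02 and 7.90 on the SUB1A arrays, against 7.40 and 7.63 on the WT arrays. CXE20 rose by 0.44 ± 0.09, with a limma adjusted p of 0.00814, which was 0.0580 without SUB1A replicate 1. CXE16 was at 0.20 ± 0.06, just short of the threshold with a limma adjusted p of 0.0530. CXE18 was at 0.03 ± 0.07, with an adjusted p of 0.805. The 4 measured genes of SKP1-like proteins, the family that links F-box proteins to the ligase, lay between -0.11 and 0.06 in SUB1A and did not pass. The probe sets of SK15, SK16 and SK19 read under 5, the level taken here as dim. The 3 GRAS genes outside the DELLA group, SCL21, SCL23 and LAS, lay between 0.03 and 0.14 and did not pass either.

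The genes most like each of the 4 were named by the highest Pearson correlation over the 6 arrays, among genes with a mean of at least 6. The points share the 3 groups, so a high value says mainly that group means stand in the same order, and no test was made. For GID1A the 3 closest were AT1G10990, AT1G17830 and AT1G14810, with correlations of 0.998, 0.992 and 0.991. For GID1B they were the plantacyanin gene ARPN, AT1G73320 and AT2G34930, at 0.999, 0.996 and 0.995. For SLY1 they were AT3G51580, AT5G05600 and AT5G13610, at 0.994, 0.993 and 0.993. For GID1C they were AT2G38090, AT5G45670 and AT4G14600, at 0.976, 0.969 and 0.960. A correlation of at least 0.9 was reached by 351 of 5254 genes with GID1A, 420 of 5185 with GID1B and 325 of 3452 with SLY1, but by 23 of 7613 with GID1C. ARPN had means of 9.29 in SUB1A, 8.81 in SUB1C and 8.62 in WT.

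Of the tissue markers, 2 of 11 for green tissue, 3 of 10 for root, 1 of 13 for seed and embryo, 1 of 3 for guard cells and 0 of 4 for vascular tissue were measured. The green tissue genes RCA and LHCB4.2 and the root gene PYK10 read between 13.9 and 14.7 on every array. In SUB1A against WT, LHCB4.2 fell by 0.35 ± 0.07, RCA was at -0.06 ± 0.06 and PYK10 at 0.11 ± 0.06. The root hair genes EXPA7 and EXPA18 rose by 0.29 ± 0.08 each in SUB1A, close to the rise of GID1A, and by 0.78 ± 0.08 and 0.75 ± 0.08 in SUB1C, where none of the 4 genes passed. Their SUB1A calls ended without either SUB1A array or without WT replicate 2, and that of EXPA18 also without WT replicate 1, with adjusted p up to 0.154. The LHCB4.2 call ended without SUB1A replicate 1 or WT replicate 1, at up to 0.0776. FAMA, a gene of the guard cell lineage, fell by 0.61 ± 0.07 in SUB1A. M17, a gene of late seed development, read 8.18 and 8.43 on the SUB1A arrays, against 4.00 and 4.30 on the WT arrays. On the SUB1C arrays it read 4.65 and 4.56, and its SUB1C and WT values lie under 5, the level taken here as dim. In SUB1C against WT its change was 0.46 ± 0.11, with a limma adjusted p of 0.0602. The part of these marker shifts in the changes of the 4 genes was not tested.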

How the data were processed

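The deposited table holds 1 log2 expression value per probe set for each of 6 arrays. Per the submitters' processing notes, the authors used RMA. The RMA version, settings and probe filters are not given in the sources used here. RMA shrinks differences at low signal, and no detection calls were used. Of 22810 probe sets, 64 controls were left out and 22746 tested. The annotation gave 13513 of these a single gene, 503 several and 8730 none. Where the annotation lacked a listed symbol, it was matched through Entrez gene ID to RefSeq names (TAIR10.1).

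limma 3.58.1 in R 4.3.3 was fitted to all 6 arrays with eBayes moderation (3 residual degrees of freedom, 5.37 from the prior), two-sided. A check on simulated data required recovery only of changes larger than those of the 4 genes. The number of arrays limits the precision. The 4 genes and the lists were chosen with earlier results of these data known. Named genes were these 4, every measured pathway gene and, for each of the 4, the 3 genes with the highest correlation, given an SD at least that of the gene divided by 2. CXE20 and other relatives and the markers given by value were chosen after values could be seen. Alternatives were other normalizations, filters, priors, weights, thresholds and samples.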

Additional observations from a re-analysis of the deposited data

How the results depend on the processing

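Each of the 12 changes of the 4 genes was recomputed under 18 alternatives. GID1A, GID1B and SLY1 kept their direction throughout in every comparison, and GID1C did so in SUB1A against WT. Most alternatives leave the change in a given comparison as it was, so they do not test its direction. These are the replicate block, priors, weights, filters, thresholds, averaging of probe sets, the 2-group fit and omission of an array outside the comparison. GID1A in SUB1A against WT stayed at 0.289 under these. It was 0.293 after renewed quantile normalization, 0.299 after median centring, and 0.255 to 0.324 over omitted SUB1A or WT arrays. Calls of GID1B and SLY1 in SUB1A against WT held under all 18. Of these, a threshold of 0.1 cannot end a call, and omitting either SUB1C array repeats the 2-group fit. In SUB1C against WT no alternative called any of the 4 genes, where a threshold of 0.01 cannot add a call. GID1C changed sign without SUB1C replicate 1 in that comparison, to 0.02, and in 2 of 18 alternatives between the lines, at up to 0.08, without passing in any.

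With an adjusted p threshold of 0.01, the calls of GID1A against WT (0.29) and of GID1B (0.27) and SLY1 (0.34) between the lines were lost, leaving 1 gene called between the lines. Over single omitted arrays the changes ranged from 0.26 to 0.32 for GID1A in SUB1A against WT, and between the lines from 0.34 to 0.41 for GID1A, 0.22 to 0.32 for GID1B and 0.26 to 0.43 for SLY1, with 0 to 3 genes called. These alternatives hold fewer arrays or a stricter threshold by construction.

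Pathway genes called, the 4 genes included, numbered 7 of 15 in SUB1A against WT, 2 in SUB1C against WT and 5 between the lines. Of all probe sets, 20.2%, 4.71% and 12.1% were called. GID1A, GID1B and SLY1 are 3 of the 7, and all were listed with earlier results of these data known, so these counts are no result about the pathway. The pathway counts became 4, 0 and 3 at a threshold of 0.01, and 9, 3 and 8 at 0.1. Over omitted arrays they ranged from 4 to 6, 0 to 2 and 2 to 6. Without EXPA8, an alternative chosen after seeing the data, 6, 1 and 4 remained called.

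All called probe sets numbered 4606, 1071 and 2742 in these comparisons. They were 2318, 588 and 1304 with single-gene probe sets only, where fewer were tested. At a threshold of 0.01 they were 2344, 296 and 1191, and at 0.1 they were 6157, 2083 and 4051. Over omitted arrays they ranged from 2701 to 3961, 191 to 882 and 1078 to 3026. Arrays sharing a replicate number had deviations that correlated at -0.01, 0.04 and 0.02 between groups, so the numbers were not taken as pairs. A replicate block gave 4473, 1025 and 2625, and it changed no call of the 4 genes, with GID1B between the lines at an adjusted p of 0.0489. The block moved 2 other results across the threshold, M17 in SUB1C against WT to an adjusted p of 0.0484 and CXE20 between the lines to 0.0520. The 4 genes and the list genes had 1 probe set each, so averaging probe sets left their values as they were.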
